A study of Mus musculus with 2 samples.

Results

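The cadherin genes measured here are those whose symbol marks them as a cadherin (Cdh with a number), a cadherin-related protein (Cdhr), a protocadherin (Pcdh), a desmoglein (Dsg) or a desmocollin (Dsc). Membership was set by symbol, through probe sets annotated to a single gene, and 69 of the 19937 genes named on the arrays met that rule. The members and the gene lists used below were chosen with earlier results of these data known. The arrays (Affymetrix Mouse Gene ST, which read whole transcripts) held RNA of sorted medullary thymic epithelial cells (mTEC) from B6 mice aged 6 weeks, 1 array for each of 2 labelled genotypes. Both genotypes carried floxed Hdac3 alleles. The group labelled WT was HDAC3fl/fl without Cre, and the group labelled HDAC3cKO was HDAC3fl/fl Foxn1-Cre, in which Cre is driven by a gene of thymic epithelium. Cells were gated as EpCAM+ and CD45- with low Ly51 and low MHC class II, with about 30000 cells per extraction and typically 10 to 30 pooled mice for the HDAC3cKO group. HDAC3 is a histone deacetylase of corepressor complexes.

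Cadherins are membrane proteins whose extracellular repeats bind calcium and hold neighbouring cells together. Classical cadherins anchor adherens junctions to actin through catenins, and desmogleins and desmocollins anchor desmosomes to keratin filaments through plakoglobin, plakophilins and desmoplakin. Cadherin-related proteins link the microvilli of brush borders or serve sensory and ciliated cells, while protocadherins are best known from the nervous system. Medullary thymic epithelium expresses many genes of other tissues for the education of T cells, so cadherins of gut, airway, skin, eye and brain can appear there.

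With 1 array per label there was no replicate, so no test or error can be given and every difference holds for these 2 arrays alone. Precision is limited by the number of arrays. The arrays are called WT-labelled and cKO-labelled below. Each difference is the log2 intensity of the cKO-labelled array minus that of the WT-labelled array, and a gene was counted as apart from 2-fold on. Levels are compared within a probe set and not between genes. In pooled RNA, fewer cells of a type and less RNA per cell cannot be told apart. The table held 34760 probe sets, whose median intensity was 183.2 (WT-labelled) and 177.0 (cKO-labelled), and the median gene differed by 0.01 on the log2 scale. Hdac3 itself stood at a log2 level of 10.90 on the WT-labelled array and at 11.64 on the cKO-labelled array, which goes against the labels, and the sources do not say whether its probe set covers the deleted exons. Every direction below therefore rests on the labels. All 15 genes listed as markers of medullary thymic epithelium had an intensity of at least 821.0 on the WT-labelled array and at least 358.0 on the cKO-labelled array. The list is not confined to genes particular to the medulla. On the cKO-labelled array 5 of them were 2-fold lower or more, led by Fezf2 at -2.97 and Cldn3 at -1.39. Another 1, Pax1, was 2-fold higher, at 1.25. Of the 15, 9 were below 0 and 6 above 0. Epcam, used in the sort, differed by -0.27.

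On the cKO-labelled array, 8 of the 69 cadherin genes were 2-fold lower or more (11.6%), where 5.88% of all named genes were. Another 6 were at least 2-fold higher (8.70%), where 2.97% of all named genes were. The lower ones were the cadherin-related genes Cdhr1, Cdhr2, Cdhr3, Cdhr4 and Cdhr5, together with Cdh2, Cdh17 and Pcdh20. The higher ones were Cdh3, Cdh5, Cdh11, Dsc2, Dsc3 and Pcdhb6. The other 55 differed by less than 2-fold. The median difference over all 69 was -0.07, beside 0.01 over all named genes. Of the 19937 named genes, 9620 were below 0 and 10175 above 0. These numbers, with 5.88% lower and 2.97% higher at 2-fold, are also the background for the counts of every gene list in the text. At a threshold of 1.5-fold, 13 of the 69 were lower and 8 higher, where 11.2% and 8.33% of all named genes were. At 3-fold, 7 of the 69 were lower and 1 higher, where 2.88% and 0.757% of all named genes were. The balance of calls depended on the scaling, with 9 lower and 3 higher after an intensity-dependent loess curve in place of 8 and 6. The shares of all named genes were not counted after that scaling, so these counts have no background beside them. Of the 69 genes, 19 had a mean log2 level of 8.03 or more, the level of the median gene, and 50 lay below it. Detection calls are not part of the table, so a low level does not show absence. Of these 19, 5 were 2-fold lower (6.75% of all 9969 such genes were) and 5 were 2-fold higher (4.54%), counts given as a description only, since a gene can pass through the array where it is high.

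**Figure D1:**
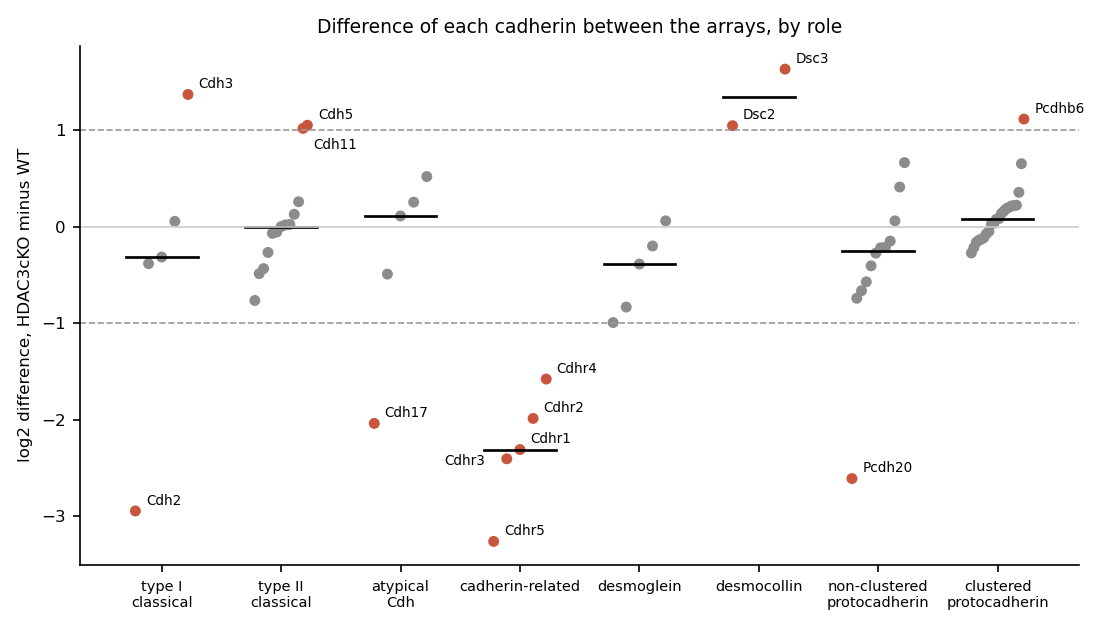
Log2 difference (HDAC3cKO minus WT, vertical axis) of each of the 69 cadherin genes by role, 1 point a gene, with a bar at the median of each role and dashed lines at 2-fold. All 5 cadherin-related genes lie below the lower line and both desmocollins above the upper line (Dsc2 just under it after loess, at 0.96), while 21 of 22 clustered protocadherins lie between the lines.

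The cadherin-related genes were lower without exception, 5 of 5, at a median difference of -2.31 or 4.96-fold. To show the sequence at these genes, the 250 bases before the start of each were read from the RefSeq promoter table (build GRCm38.p6). No build is named for the array values. Pcdh20 was added, the other gene among the 8 with a window in this search. Cadherin genes on the chromosome of Cdh2, the desmosomal cadherins and the beta protocadherins were left out of the search. The windows of all genes, used as background, were not restricted in this way. Each is written 5′ to 3′ in the direction of its gene and ends at the base before the start, with capitals on every match to the motifs listed after it.
Cdhr1 (chr14:37098348-37098597, minus strand): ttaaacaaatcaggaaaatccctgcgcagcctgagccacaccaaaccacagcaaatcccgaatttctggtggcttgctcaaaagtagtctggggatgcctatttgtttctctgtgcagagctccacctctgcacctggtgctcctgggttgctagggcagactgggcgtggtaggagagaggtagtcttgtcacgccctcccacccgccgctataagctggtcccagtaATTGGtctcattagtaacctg
Cdhr2 (chr13:54701213-54701462, plus strand): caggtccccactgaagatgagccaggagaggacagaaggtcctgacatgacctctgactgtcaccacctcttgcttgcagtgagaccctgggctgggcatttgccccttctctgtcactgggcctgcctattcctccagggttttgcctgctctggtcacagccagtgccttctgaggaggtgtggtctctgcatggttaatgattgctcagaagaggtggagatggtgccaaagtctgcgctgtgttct
Cdhr3 (chr12:33092876-33093125, minus strand): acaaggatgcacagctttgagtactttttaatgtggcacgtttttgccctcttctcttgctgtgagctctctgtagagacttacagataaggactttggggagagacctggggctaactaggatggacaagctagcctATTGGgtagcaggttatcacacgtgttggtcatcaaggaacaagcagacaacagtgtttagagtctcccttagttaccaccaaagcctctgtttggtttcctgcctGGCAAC
Cdhr4 (chr9:107992207-107992456, plus strand): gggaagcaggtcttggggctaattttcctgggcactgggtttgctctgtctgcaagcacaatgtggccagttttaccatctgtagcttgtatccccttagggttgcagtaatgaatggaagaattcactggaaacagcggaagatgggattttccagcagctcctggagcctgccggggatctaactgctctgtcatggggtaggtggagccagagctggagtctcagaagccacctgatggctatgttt
Cdhr5 (chr7:141276787-141277036, minus strand): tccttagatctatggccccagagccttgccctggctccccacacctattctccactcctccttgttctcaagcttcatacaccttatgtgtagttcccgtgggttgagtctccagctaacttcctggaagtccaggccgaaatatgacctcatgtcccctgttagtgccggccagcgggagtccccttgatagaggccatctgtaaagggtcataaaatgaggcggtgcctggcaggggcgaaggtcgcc
Pcdh20 (chr14:88471397-88471646, minus strand): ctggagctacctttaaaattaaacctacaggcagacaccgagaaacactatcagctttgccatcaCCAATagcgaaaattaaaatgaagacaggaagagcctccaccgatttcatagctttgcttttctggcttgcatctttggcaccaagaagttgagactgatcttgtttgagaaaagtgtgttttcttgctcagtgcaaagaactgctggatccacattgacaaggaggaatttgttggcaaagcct
Motifs were searched on both strands of each window. They were the TATA box (TATAAA), the CCAAT box (CCAAT), the GC box (GGGCGG), the first part of the X-box of ciliary genes (GTTGCC), the octamer of POU factors (ATTTGCAT) and the core of the RBPJ site (TGGGAA), and no matches overlapped in the printed windows. The CCAAT box was found in 3 of the 6 windows, those of Cdhr1, Cdhr3 and Pcdh20, and 33.8% of 32851 windows of the same length in the table hold it. Among the 21 cadherin genes under 2-fold that were searched, taking the first listed window of each, 13 held it. The share among the 6 lower genes was thus above that of all windows and below that of these 21 genes. With 6 windows no conclusion is drawn from it. The X-box letters were found in 1 of the 6, that of Cdhr3, as GGCAAC in the last 6 bases before the start, and 10.4% of all windows hold it. None of the 6 held TATAAA (12.4% of all windows), GGGCGG (32.7%), ATTTGCAT (1.60%) or TGGGAA (21.6%) in these letters. Of the 21 genes under 2-fold, 9 held GGGCGG, 4 TGGGAA, 2 TATAAA, 1 ATTTGCAT and 0 GTTGCC. The 6 windows held between 1 and 7 CpG dinucleotides, at a median of 2.5. The same 21 genes held between 0 and 30, at a median of 10, and the median of all windows was 6. A match is a description of letters and not a binding site.

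Cdhr5 and Cdhr2 encode partner proteins that bridge the tips of microvilli in the intestinal brush border. Cdhr5 (probe set 10569113) had a log2 level of 9.90 on the WT-labelled array and 6.64 on the cKO-labelled array, a difference of -3.26 or 9.58-fold. That is the lowest value in the family, and 0.326% of all named genes had a difference at least as low. Cdhr2 (probe set 10405303) stood at 8.06 and 6.08, a difference of -1.99 or 3.96-fold. Both partners were thus lower on the same array. Cdhr1 (probe set 10419015) encodes a cadherin of photoreceptor cells. Its log2 level was 9.89 on the WT-labelled array and 7.58 on the other, a difference of -2.31 or 4.96-fold. Cdhr3 (probe set 10399943), a protein of ciliated airway epithelium that serves as a rhinovirus C receptor in humans, stood at 9.63 and 7.22, a difference of -2.40. Cdhr4 (probe set 10588819) had the smallest difference of the group, from 9.88 to 8.30, that is -1.58 or 2.99-fold. Under the 3 other scalings and with probe sets averaged, the 5 differences ran from -3.30 at the lowest for Cdhr5 to -1.53 at the highest for Cdhr4, so none came within 2-fold.

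Markers of several differentiated epithelial cells differed in the same direction as these genes. All 11 tuft cell markers were at least 2-fold lower, at a median of -3.53, and their summed intensity was 37423 on the WT-labelled array and 3001 on the cKO-labelled array. Trpm5 and Sh2d7 had the largest tuft cell differences, -4.70 and -4.41. Of 11 cornified cell markers, 10 were at least 2-fold lower, at a median of -3.11 and summed intensities of 31614 and 4574, led by Hrnr at -4.41 and Klk7 at -3.99. Of 10 ciliated cell markers, 5 were at least 2-fold lower, at a median of -0.98 and summed intensities of 3067 and 1561, led by Dnah5 at -2.41 and Dnah9 at -1.52. No marker of the 3 lists was at 0, the lowest intensity among them being 77.4, that of a ciliated cell marker on the cKO-labelled array. Their part in the cadherin differences was not tested.

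Genes for the partners of cadherin-related proteins and of the hair cell tip link were closer together on the arrays, but at low levels. Their log2 levels ran from 5.22 (Tmc1, WT-labelled array) to 8.44 (Ush1c, cKO-labelled array). At such levels, without detection calls, a small difference does not show that a gene was unchanged. Of 8 measured genes of the tip link and intermicrovillar complex, none was 2-fold apart (1, Ush1c, was higher after median centring and after quantile normalization), and the median was -0.02 (0.03 after median centring). The harmonin gene Ush1c, whose product binds the tails of these cadherins, differed by 0.99, just under 2-fold and opposite in sign to Cdhr2 and Cdhr5. Anks4b and Myo7b, which encode other proteins of the intermicrovillar complex, differed by -0.98 and -0.63. The tip link cadherins themselves, Cdh23 and Pcdh15, differed by 0.11 and -0.15. A second Pcdh15 probe set, of lower mean level, differed by -0.67.

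**Figure D2:**
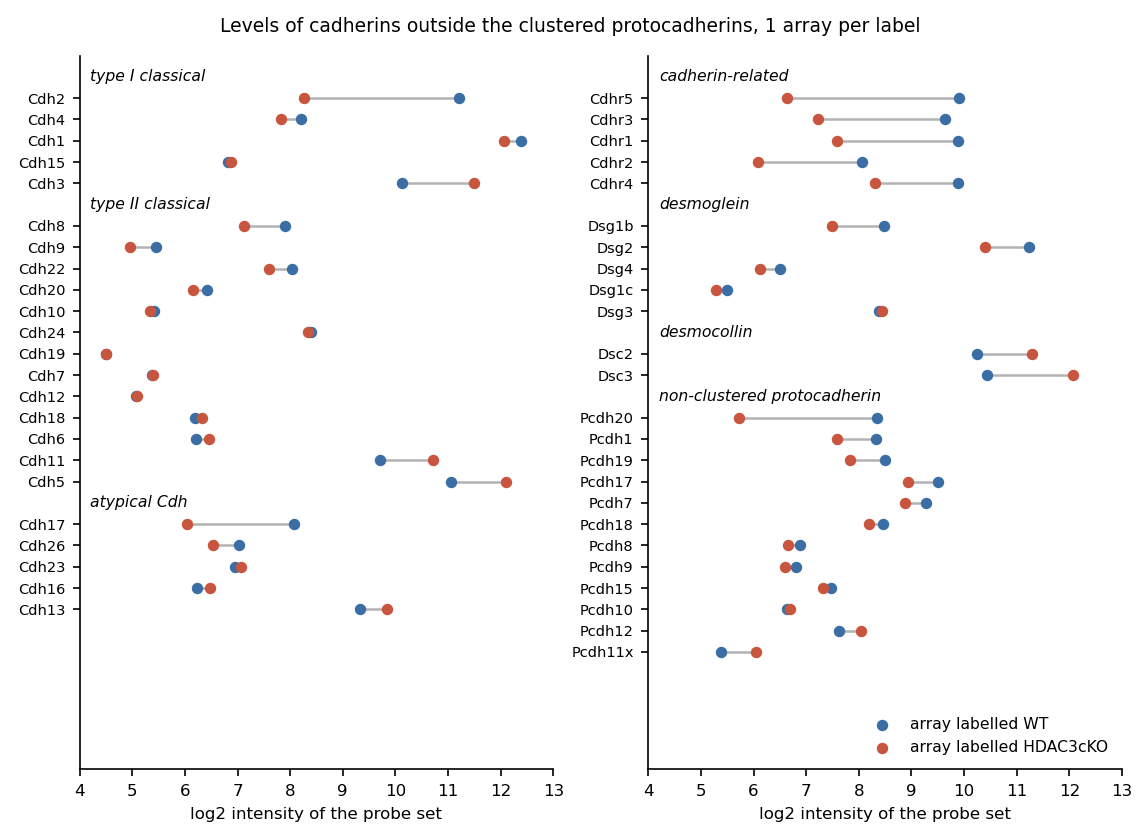
Log2 intensity (horizontal axis) of the 47 cadherin genes outside the clustered protocadherins, in blue for the WT-labelled array and red for the cKO-labelled array, with a line joining the 2 values of a gene. Long lines with the red point on the left mark Cdh2, Cdh17, Pcdh20 and the cadherin-related genes, and the red point is on the right for Cdh3, Cdh5, Cdh11, Dsc2 and Dsc3.

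Among the 5 type I classical cadherins, which hold adherens junctions together, N-cadherin was lower, P-cadherin was higher and E-cadherin differed little. Cdh2, which encodes N-cadherin of neural and mesenchymal cells, had a log2 level of 11.21 on the WT-labelled array and 8.27 on the cKO-labelled array (probe set 10457644), a difference of -2.94 or 7.70-fold. Cdh3, which encodes P-cadherin of basal epithelial layers and hair follicles, stood at 10.13 and 11.49 (probe set 10575034), a difference of 1.37 or 2.58-fold. Cdh1, which encodes E-cadherin, the main cadherin of epithelia, stood at 12.38 and 12.06, a difference of -0.32. The gene table places Cdh1 and Cdh3 beside each other, so these neighbours had differences of opposite sign. Cdh4, which encodes R-cadherin, differed by -0.38, and Cdh15, the M-cadherin of muscle precursors, by 0.05.

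The catenins that bind the tails of classical cadherins were close to equal on both arrays. Beta-catenin (Ctnnb1) differed by 0.06, alpha-catenin (Ctnna1) by -0.01 and p120-catenin (Ctnnd1) by 0.07. Of 18 measured genes of catenins and adherens junctions, 1 was at least 2-fold lower, Shroom3, an actin regulator of apical constriction, at 2.12-fold. Another 1 was 2-fold higher, the alpha-catenin-like gene Ctnnal1, at 2.14-fold, and the median of the list was 0.03 (-0.05 after loess). The 10 transcription factors known as repressors of Cdh1 in epithelial-mesenchymal transition had a median of 0.14, with none 2-fold apart, and Snai1 had the largest difference among them, 0.80.

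Of the 13 type II classical cadherins, 2 were at least 2-fold higher and the other 11 under 2-fold, around a median of 0.00. Cdh5, which encodes VE-cadherin of endothelial junctions, had a log2 level of 11.06 on the WT-labelled array and 12.11 on the cKO-labelled array (probe set 10574438), a difference of 1.05 or 2.07-fold. Cdh11, a cadherin of mesenchyme and osteoblasts, stood at 9.70 and 10.72 (probe set 10581013), a difference of 1.02 or 2.02-fold. The gene table places Cdh11 and Cdh5 beside each other, so these neighbours had differences of the same sign. Both differences lie near the threshold, at 0.98 after quantile normalization and 0.95 after loess. Another 3 probe sets, annotated jointly to Cdh11 and a pair of other genes, differed by 0.45, 0.39 and 0.12 and cannot be assigned to Cdh11. Endothelial and fibroblast markers were higher on the same array. As background, 10175 of 19937 named genes were above 0 and 2.97% were at least 2-fold higher. All 15 endothelial markers were above 0 and 7 were at least 2-fold higher, at a median of 0.99 and summed intensities of 9857 on the WT-labelled array and 20877 on the cKO-labelled array. Emcn and Kdr had the largest differences, 2.20 and 1.34. Of 14 fibroblast markers, 11 were above 0 and 6 were at least 2-fold higher, at a median of 0.82 and summed intensities of 9850 and 22089, led by Mfap5 at 2.40 and Mgp at 1.52. No marker of these lists was at 0, the lowest intensity being 163.5, and their part in the values of Cdh5 and Cdh11 was not tested.

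The other type II cadherins, most of them described from brain, differed by less than 2-fold. Cdh8 was the lowest, at 7.90 on the WT-labelled array and 7.13 on the cKO-labelled array, a difference of -0.77. Cdh9 and Cdh22 differed by -0.49 and -0.44, Cdh20 by -0.27 and Cdh6, first described in kidney, by 0.26. Cdh24, the only other type II member with a mean level at or above that of the median gene, differed by -0.06. The remaining 5, Cdh7, Cdh10, Cdh12, Cdh18 and Cdh19, differed by between -0.07 and 0.13 at log2 levels of 4.51 to 6.32. Among the 5 atypical Cdh genes, Cdh17 was the exception to small differences. Cdh17, the liver-intestine cadherin, stood at 8.08 on the WT-labelled array and 6.04 on the cKO-labelled array (probe set 10503341), a difference of -2.04 or 4.11-fold. Cdh13, the lipid-anchored T-cadherin, was the highest of that group, at 9.33 and 9.85, a difference of 0.52. Cdh26 differed by -0.49 and Cdh16, a cadherin of kidney, by 0.25.

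The desmosomal cadherins split by subfamily. Both measured desmocollins were at least 2-fold higher on the cKO-labelled array (after loess 1 was), and none of the 5 desmogleins was. Dsc3, a desmocollin of the basal layers of stratified epithelium, had a log2 level of 10.44 on the WT-labelled array and 12.07 on the cKO-labelled array (probe set 10457669), a difference of 1.63 or 3.10-fold, the highest value in the family. Dsc2, the most widely expressed desmocollin, stood at 10.24 and 11.29 (probe set 10457686), a difference of 1.04 or 2.06-fold that became 0.96 after loess. Cdh2 and Dsc3 are neighbours in the gene table, with differences of -2.94 and 1.63. Dsc3 and Dsc2 are neighbours too, with differences of the same sign, 1.63 and 1.04. Dsg2, the desmoglein of simple epithelia, stood at 11.24 and 10.41, a difference of -0.83 or 1.78-fold. Dsg1b, 1 of the mouse desmoglein 1 genes of outer epidermis, stood at 8.49 and 7.49, a difference of -0.99 that lies just under 2-fold and became -1.03 after loess. Dsg3, the desmoglein of basal epidermis, differed by 0.06, Dsg4 of the hair follicle by -0.39 and Dsg1c by -0.20. The desmoglein 1 genes are near copies, so the values of Dsg1b and Dsg1c are uncertain. A probe set annotated jointly to both and to Dsg1a differed by -1.89 and cannot be assigned to any of them. Dsc1 and Dsg1a were not analysed here as single genes.

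All 11 measured genes of the desmosome plaque and the cornified junction were below 0 (10 after median centring), at a median of -0.32. Over all named genes, 9620 of 19937 were below 0. In the list 2 genes were at least 2-fold lower, where 5.88% of all named genes were. Cdsn, which encodes corneodesmosin of cornified junctions, was 4.10-fold lower and the plakophilin gene Pkp2 2.71-fold lower. The other plaque genes differed less, plakoglobin (Jup) by -0.43, Pkp1 by -0.32, Pkp3 by -0.21 and desmoplakin (Dsp) by -0.03. Among 13 genes of proteases that cleave cadherins and of the presenilin complex, 4 were at least 2-fold lower and 9 were under 2-fold, around a median of -0.36. They were Klk7 at 15.9-fold, Klk14 at 6.31-fold and Klk5 at 3.14-fold, kallikreins that cleave desmosomal proteins as skin sheds, and Mmp9, a matrix metalloproteinase, at 4.12-fold. Klk7 also stands in the list of cornified cell markers.

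Of the 12 non-clustered protocadherins, 1 was at least 2-fold lower and the other 11 were under 2-fold, around a median of -0.25. Pcdh20 (probe set 10421911) had a log2 level of 8.34 on the WT-labelled array and 5.73 on the cKO-labelled array, a difference of -2.61 or 6.10-fold. Its neighbour in the gene table, Pcdh9, differed by -0.21. The next lowest were Pcdh1, a protocadherin found in airway epithelium, at -0.74 and Pcdh19, linked to epilepsy in humans, at -0.66. Pcdh17 stood at 9.50 and 8.93, a difference of -0.57, and Pcdh7 at 9.28 and 8.88, a difference of -0.41. Pcdh18 differed by -0.28, Pcdh8 by -0.22 and Pcdh10 by 0.06. Pcdh11x, on the X chromosome, was the highest at 0.66, from a log2 level of 5.38 to 6.04, and Pcdh12, a protocadherin of endothelium, followed at 0.41.

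The clustered protocadherins give neurons individual surface identities, and the 22 measured here were all beta members. Of these, 1 was at least 2-fold higher and the other 21 were under 2-fold, around a median of 0.08, and 20 of the 22 differed by less than 0.5. Pcdhb6 (probe set 10455069) stood at 7.13 on the WT-labelled array and 8.25 on the cKO-labelled array, a difference of 1.11 or 2.16-fold. Its neighbour Pcdhb7 followed at 0.65, from 6.12 to 6.77, while Pcdhb5 on the other side differed by 0.08 and Pcdhb8 by 0.20. Pcdhb11 was the lowest, at -0.27. No beta member had a mean level as high as that of the median gene. The genes of the cluster are similar in sequence and may share probes, so their single values are uncertain. Of 13 genes that regulate the cluster or act below it, among them the chromatin loop factors Ctcf at -0.06 and Rad21 at 0.25, none was 2-fold apart, and the median was 0.01 (-0.05 after loess).

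**Figure D3:**
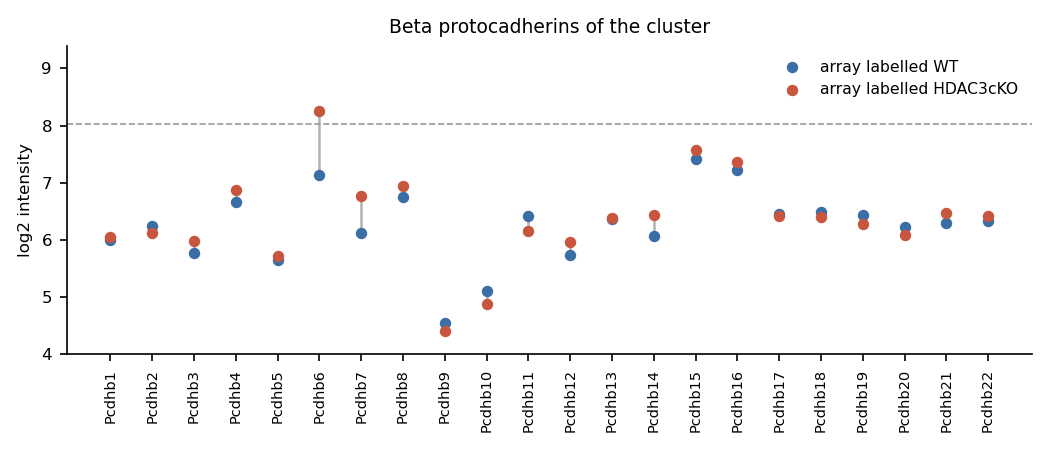
Log2 intensity (vertical axis) of the 22 beta protocadherins in the order of their number, in blue for the WT-labelled array and red for the cKO-labelled array, with a dashed line at the filter level of 8.03. Pcdhb6 has the widest gap, 1.11, followed by Pcdhb7, and the other gaps are below 0.5.

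Other genes with cadherin repeats or cadherin-like domains went both ways, counted together with a kinase gene of the Fat pathway that lacks such repeats. Of 13 measured genes of the Fat, Dachsous, Celsr and calsyntenin families, with Ret and the Fat pathway kinase gene Fjx1, 3 were at least 2-fold higher and 2 lower, at a median of 0.34. Fjx1 was 3.02-fold higher, Fat3 2.89-fold and Fat2, an atypical cadherin of stratified epithelium, 2.82-fold. Ret, a receptor tyrosine kinase with cadherin-like domains, was 2.96-fold lower and Celsr1, of the planar polarity pathway, 2.52-fold lower.

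**Figure D4:**
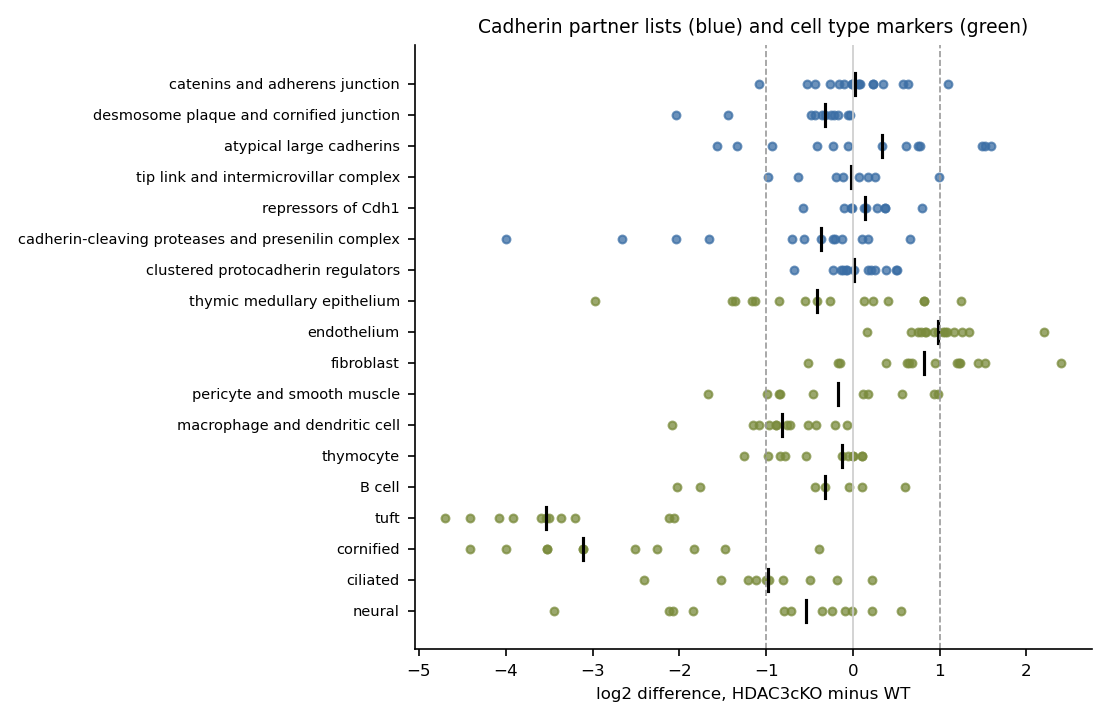
Log2 difference (HDAC3cKO minus WT, horizontal axis) of each gene in the lists of cadherin partners (blue) and cell type markers (green), 1 point a gene, with a bar at the median of each list and dashed lines at 2-fold. Tuft and cornified cell markers lie farthest to the left, with medians of -3.53 and -3.11, and endothelial markers farthest to the right, at 0.99.

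The marker lists of the remaining cell types had medians between -0.82 and -0.12. Those of medullary thymic epithelium had a median of -0.41, with 9 of 15 below 0 and 6 above, and 1 of them, Pax1, was 2-fold higher. The macrophage and dendritic cell list had a median of -0.82, with 12 of 12 genes below 0 and 3 of them 2-fold lower. Of 12 neural markers 4 were 2-fold lower, at a median of -0.54. B cell markers had a median of -0.32, pericyte and smooth muscle markers of -0.17 and thymocyte markers of -0.12.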

How the data were processed

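The authors deposited a table of linear intensities for 34760 probe sets on 2 arrays, made with RMA per the submitters' processing notes. RMA adjusts for background, brings arrays to a common scale and combines the probes of a set; its settings are not given in the sources. The deposited intensities were converted to log2, with neither pseudocount nor rescaling. Names came from the platform annotation, and symbols were checked by Entrez identifier against RefSeq genes of GRCm38.p6. Of the probe sets, 21640 had 1 symbol, 1321 had several and 11799 were unnamed here. The probe set with the highest mean gave a gene its value, for 19937 genes. The cadherin rule matched 73 probe sets of 69 genes, all found in the gene table.

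With 1 array per group the analysis counts genes from 2-fold on and gives medians, with no test. Named are all members 2-fold apart, all type I and desmosomal cadherins, all members at or above the median level of 8.03, the extremes of each role, partner genes 2-fold apart with 7 fixed ones, and the 2 most different markers of the lists discussed. Other named genes were chosen after their values were seen. The members and lists were chosen with earlier results of these data known. Counting and scaling were tested on simulated data. The tools were pandas 2.3.3, numpy 2.4.6, matplotlib 3.10.9 and statsmodels 0.14.6 under Python 3.11.15.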

Additional observations from a re-analysis of the deposited data

How the results depend on the processing

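Alternatives were 3 scalings (median centring, quantile normalization and a loess curve with span 0.3), averaged probe sets, every probe set counted, a filter at the median level, leaving out clustered protocadherins, and thresholds of 1.5-fold and 3-fold. The 8 lower and 6 higher genes became 9 and 3 after loess, and 8 and 4 after quantile normalization. After loess, Cdh5 (0.95), Cdh11 (0.95) and Dsc2 (0.96) were under 2-fold and Dsg1b (-1.03) was past it. The shares of all named genes were not counted after these scalings. At 1.5-fold, 13 of the 69 members were lower and 8 higher, where 11.2% and 8.33% of all named genes were. At 3-fold, 7 members were lower and 1 higher, where 2.88% and 0.757% of all named genes were. Among the 19 genes above the filter, 5 were lower and the median of -0.07 became -0.32, and without the clustered protocadherins it became -0.22. For both medians and for the filter, fewer genes enter by construction. The cause of the loess changes was not tested. No member's difference reversed past 2-fold under any of the scalings or with averaged probe sets, and the scalings moved the median gene by between -0.04 and 0.05. No paired analysis was possible because each label has 1 array. Intensities near the low end of the table carry no detection call, which limits what the beta protocadherins and low type II cadherins can show.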

Other observations

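Some probe sets name a cadherin without giving it a value in the comparison. A probe set annotated jointly to the 3 desmoglein 1 genes Dsg1a, Dsg1b and Dsg1c had a log2 level of 10.98 on the WT-labelled array and 9.08 on the cKO-labelled array, a difference of -1.89 or 3.71-fold, and cannot be assigned to any of them. It is lower on the same array as Dsg1b, at -0.99 through its own probe set. A probe set annotated jointly to 14 alpha protocadherins stood at 6.08 and 5.96, a difference of -0.11. For the 4 members with a second probe set, that probe set differed by -0.03 for Cdh18, by 0.20 for Cdh24, by -0.67 for Pcdh15 and by -0.11 for Pcdh9. The Cdh18 and Cdh24 probe sets differ in sign from the ones used, which gave 0.13 and -0.06.

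Cdh19 had exactly the same deposited value on both arrays, 22.7. It was among 254 probe sets with identical values on both arrays, whose median intensity was 41.3.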
